A study of Mus musculus with 7 samples.

Results

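The genes described here were 35 interferon-stimulated genes from a list of classical members of the antiviral response, followed in intestinal epithelial cells of mice after deletion of Mob1a and Mob1b. These encode the adaptors through which the Hippo pathway switches on its LATS kinases. A probe was found for 33 of the 35 listed genes, out of 20887 named genes with a probe on the array, and all 33 passed the filter on dim probes. Mx1 and Mx2 were not analysed here. Of the 33 genes, 31 were well above background on all 7 arrays. Herc6 was well above background on 6 arrays and Oas1g on 2.

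Cells were detached with 2 mM EDTA from the proximal intestine of male mice on a C57BL/6J background, backcrossed for more than 6 generations and aged 8 weeks at injection. All mice carried floxed alleles (Mob1a f/f and Mob1b f/f), and tamoxifen was given at 80 mg/kg per day on 2 days. The 2 control arrays came from floxed mice that the labels call wild type and for which no Cre transgene is given. They are labelled as taken 7 days after tamoxifen, whereas the design text of the series names 0 days, so the day of the controls is not settled. The knockout mice also carried Villin-creERT2, in which the Villin promoter drives a tamoxifen-dependent Cre in the intestinal epithelium, and were taken at day 4 (2 arrays), day 7 (2 arrays) and day 10 (1 array). Each time except day 10 rests on 2 mice, and the single day 10 array was taken to vary like the other groups. The labels describe no sort after EDTA, so that cells other than epithelium can be among those measured, and the labels give the controls no Cre to control for Cre activity itself.

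Interferons are secreted proteins that act through receptors on the cell surface. Type I and type III interferons lead to a complex with STAT2 and IRF9 that binds the interferon-stimulated response element (ISRE), and interferon gamma acts mainly on the gamma-activated site (GAS). The target genes encode sensors of viral nucleic acid, enzymes that block viral replication, and regulators that feed back on the pathway. In the intestine the epithelium is known to respond strongly to type III interferon, while intraepithelial lymphocytes are a source of interferon gamma.

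RefSeq promoter windows of assembly GRCm38.p6, which run from 250 bases before to 50 bases after a transcript start, were matched for 25 of the 35 genes. The core of the ISRE, written GAAANNGAAA and searched on both strands, was present in a window of 12 of these 25 genes (48%), against 3.99% of all 27025 genes in the same table. The GAS core, TTCNNNGAA on both strands, was present in 6 of the 25 (24%), against 9.55% of all genes. Both motifs can share bases but neither contains the other. A match describes the letters of the window only, and a window without a match says nothing about binding of a factor. The windows shown are those of the genes with an ISRE core whose difference at day 7 had the smallest p-values, so that the elements can be seen beside the changes below. They lie 5′ to 3′ on the strand of the gene, with the matched bases in capitals.
Isg15: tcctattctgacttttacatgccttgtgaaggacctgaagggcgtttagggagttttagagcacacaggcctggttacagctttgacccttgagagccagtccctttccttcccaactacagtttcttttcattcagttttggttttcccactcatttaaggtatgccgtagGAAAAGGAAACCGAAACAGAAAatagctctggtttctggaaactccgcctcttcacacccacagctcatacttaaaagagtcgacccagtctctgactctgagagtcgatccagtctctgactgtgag
Stat2: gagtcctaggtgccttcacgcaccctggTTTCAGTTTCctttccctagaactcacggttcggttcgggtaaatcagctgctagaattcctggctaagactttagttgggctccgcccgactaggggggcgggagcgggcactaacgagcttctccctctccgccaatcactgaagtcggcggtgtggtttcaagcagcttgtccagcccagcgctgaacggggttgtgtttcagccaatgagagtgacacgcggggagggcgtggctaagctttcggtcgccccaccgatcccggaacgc
Bst2: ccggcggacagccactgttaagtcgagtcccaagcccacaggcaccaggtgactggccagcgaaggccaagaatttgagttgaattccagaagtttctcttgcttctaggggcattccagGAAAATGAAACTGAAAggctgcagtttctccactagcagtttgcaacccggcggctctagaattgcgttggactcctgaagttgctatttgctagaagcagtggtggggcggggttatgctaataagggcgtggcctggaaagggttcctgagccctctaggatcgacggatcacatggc
Ddx58: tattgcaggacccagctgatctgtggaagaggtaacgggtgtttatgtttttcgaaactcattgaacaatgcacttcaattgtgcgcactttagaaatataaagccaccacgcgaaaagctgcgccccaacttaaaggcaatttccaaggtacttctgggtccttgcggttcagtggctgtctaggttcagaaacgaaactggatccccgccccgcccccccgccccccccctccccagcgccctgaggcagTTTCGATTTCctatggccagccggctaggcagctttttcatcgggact
Ifih1: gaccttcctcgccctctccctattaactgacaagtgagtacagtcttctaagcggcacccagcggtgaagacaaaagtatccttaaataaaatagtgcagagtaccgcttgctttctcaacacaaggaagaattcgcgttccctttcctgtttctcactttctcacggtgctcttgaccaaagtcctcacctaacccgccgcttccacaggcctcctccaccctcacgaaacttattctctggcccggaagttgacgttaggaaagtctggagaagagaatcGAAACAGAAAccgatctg
The Isg15 window (chr4:156200769-156201068, minus strand) holds 3 overlapping matches that begin at -78, -72 and -66 from the start. In Stat2 (chr10:128270248-128270547, plus strand) the match begins at -222. The Bst2 window (chr8:71537423-71537722, minus strand) has overlapping matches at -130 and -124. In Ddx58 (chr4:40239776-40240075, minus strand) and Ifih1 (chr2:62646206-62646505, minus strand) the match lies behind the start, at 2 and 32 bases. Of these 5 genes, only Isg15 was called higher at day 7. The windows of Ifit2, Irf1, Dtx3l and Herc6, which were also called higher at day 7, held no match of the ISRE core. The other genes called at day 7 had no matched window.

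The values are levels, meaning the log2 of a probe's signal over the 75th percentile of its array, so a level of 0 equals that percentile. That percentile was between 320 and 395 signal units on the 6 other arrays and 545 at day 10. Levels of different genes come from different probes and are not set against each other. A gene was called when limma's p-value, adjusted by Benjamini-Hochberg over all 24760 features tested, was below 0.05, and errors of differences are standard errors (SE) from this fit. Replicate arrays correlated at 0.985 in controls, 0.988 at day 4 and 0.977 at day 7. The Mob1b probe gave levels of -0.92 and -1.14 in controls, -2.47 and -2.42 at day 4, -2.73 and -2.48 at day 7, and -2.65 at day 10. Every knockout array lay below both controls in Mob1b. The difference was -1.42 ± 0.22 at day 4 (limma adjusted p = 0.19), and the falls at day 7 (-1.58 ± 0.22, adjusted p = 0.014) and day 10 (-1.62 ± 0.27, adjusted p = 0.0071) were called. The Mob1a probe was dim, well above background on 5 arrays, with levels of -3.89 and -3.71 in controls, -4.26 and -3.85 at day 4, -3.68 and -3.41 at day 7, and -2.18 at day 10. It was called in neither comparison of days 4 and 7 with control and was higher at day 10 (1.62 ± 0.30, adjusted p = 0.011), which goes against the label of that array, and whether either probe lies in a deleted exon is not known. The array labelled day 10 also stood apart over all features, of which 10.6% were called higher and 17.5% lower than control. All 12 epithelial markers were well above background on all arrays.

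As a group the interferon-stimulated genes lay above the controls at days 4 and 7 and below them at day 10. The median over the 33 genes, relative to the mean of the controls, was -0.12 and 0.12 on the control arrays, 0.55 and 0.67 at day 4, 0.91 and 0.98 at day 7, and -0.76 at day 10. The arrays of days 4 and 7 did not overlap the controls in this median, and the day 10 array lay below all others. The highest mean among the knockout times fell at day 7 for 23 genes, at day 4 for 10 and at day 10 for 0. The 10 include Oas1g, whose probe passed the filter only through the day 4 arrays.

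**Figure D1:**
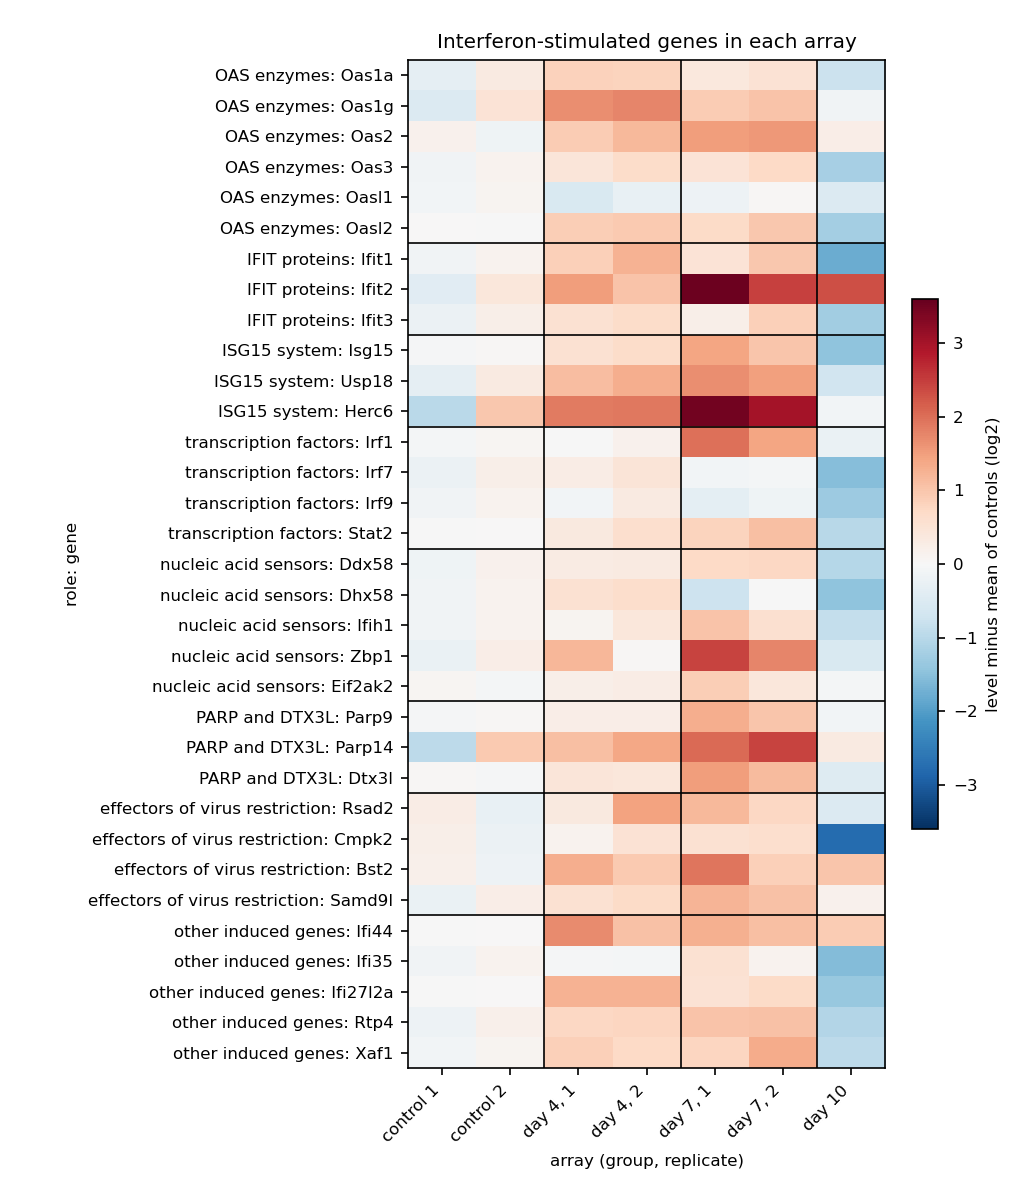
Level of each of the 33 interferon-stimulated genes on each of the 7 arrays, as the log2 difference from the mean of the 2 control arrays (colour scale), with genes grouped by role. The 4 arrays of days 4 and 7 are mostly red (medians 0.55 to 0.98) and the day 10 array is mostly blue (median -0.76), where Oas2, Ifit2, Bst2 and Ifi44 lie above both controls and Ifit2 alone was called higher.

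At day 4, no interferon-stimulated gene passed the test, although 31 of the 33 differences were above 0. The share of all features called was 0.0323% higher (8 of 24760) and 0% lower. With limma, 16 of the 33 genes had an unadjusted p below 0.05, against 1536 of the 24760 features, of which 656 were higher and 880 lower. The median difference over the 33 genes was 0.61, beside -0.07 over all features. In 26 genes both day 4 arrays lay above both controls and in 1 (Oasl1) both lay below, whereas 11.5% of all features lay above and 25.8% below. Oas1g passed the filter on dim probes only through the day 4 arrays. Without it, a count added after the data were seen, 30 of 32 differences were above 0, 15 had an unadjusted p below 0.05 and 25 did not overlap, with a median of 0.61 and 0 calls. Controls and day 4 sit in the same row of the slide. Ifi27l2a, Ifi44 and Oas1g had the smallest p-values at day 4. Their values follow with their groups.

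At day 7, 10 of the 33 genes rose and 0 fell: Oas2, Ifit2, Isg15, Usp18, Herc6, Irf1, Zbp1, Parp9, Dtx3l and Rtp4. They include the modifier Isg15 with its protease and its ligase, the Parp9-Dtx3l pair and the transcription factor Irf1. Of all features, 2.99% were called higher (740) and 4.39% lower (1087). The median difference over the 33 genes was 0.95, beside -0.07 over all features, and 29 differences were above 0. Both day 7 arrays lay above both controls for 27 genes and below them for 1. By the same measure, 22.3% of all features lay above and 32.0% below. The 27 include Oas1g, whose probe was well above background on no array of either group. The count of 10 depends on single arrays: it was 0 without day 7 replicate 1, 1 without control replicate 1, 4 without control replicate 2, and 3 without either day 4 array. Without the day 10 array it was 10. The day 7 and control arrays lie in different rows of the slide, so slide row and group cannot be told apart here.

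**Figure D2:**
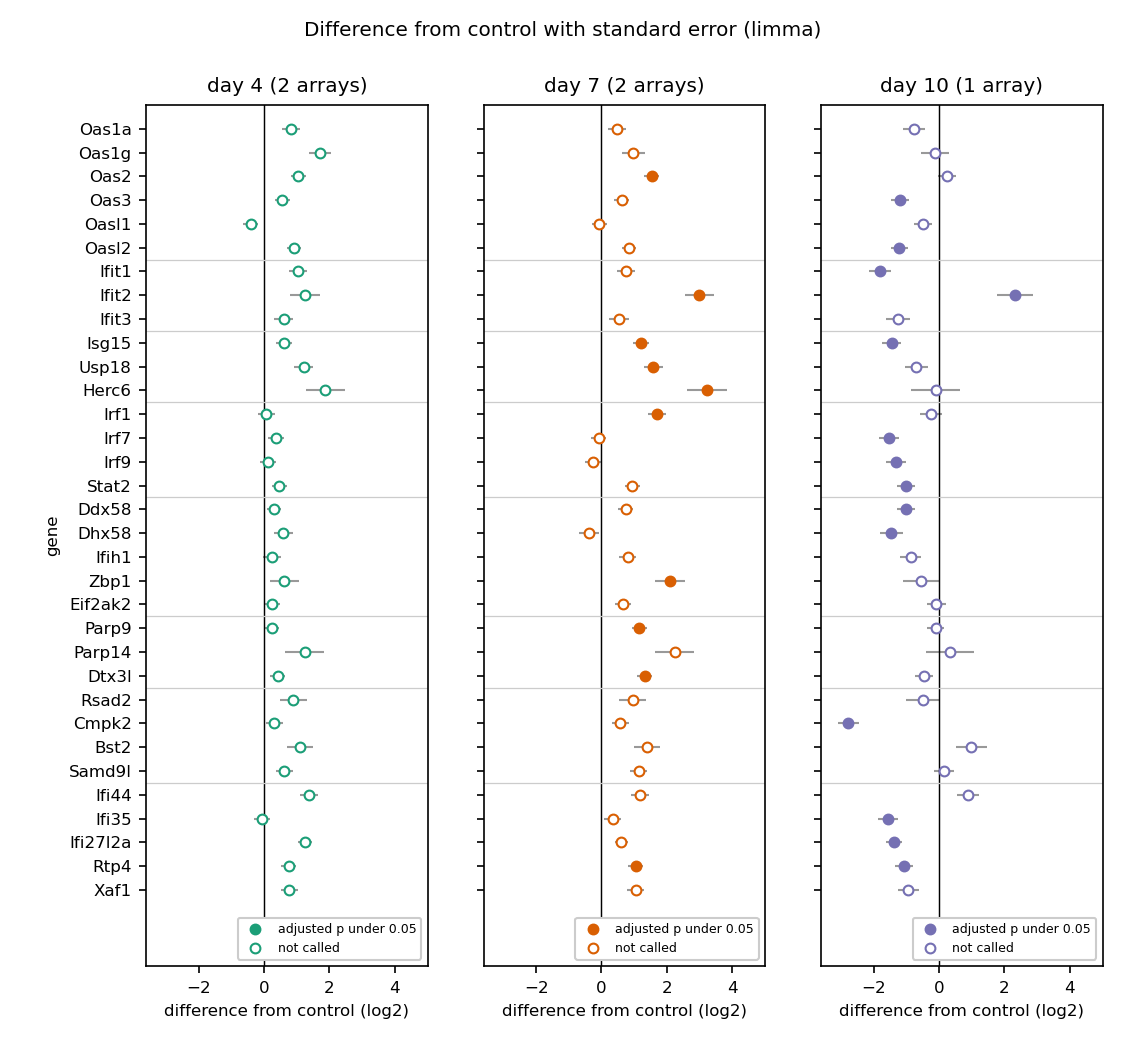
Difference from control (log2, horizontal axis) of each of the 33 genes at day 4, day 7 and day 10, with its SE as a bar, where filled points are genes called at an adjusted p below 0.05. There are 0 filled points at day 4, 10 at day 7 (all above 0) and 14 at day 10 (13 below 0, and Ifit2 above).

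The OAS group comprises the oligoadenylate synthetases, which sense double-stranded RNA and make the messenger that activates RNase L, and the related OAS-like proteins. One of its 6 genes, Oas2, rose at day 7, none was called at day 4, and 2 (Oas3 and Oasl2) fell below control at day 10. Oas2 levels were 0.82 and 0.52 in controls, 1.59 and 1.84 at day 4, 2.18 and 2.22 at day 7, and 0.92 at day 10. Each knockout array up to day 7 lay above both controls, and day 10 lay just above the higher control. The day 7 difference of Oas2 was 1.53 ± 0.23, a 2.89-fold higher signal (limma adjusted p = 0.016), and its day 4 difference was 1.05 ± 0.23 (adjusted p = 0.38). Oasl2 had levels of 3.36 and 3.35 in controls, 4.24 and 4.30 at day 4, 4.05 and 4.32 at day 7, and 2.14 at day 10. It lay above the controls on all 4 arrays of days 4 and 7, without a call (0.83 ± 0.21 at day 7, adjusted p = 0.076), and fell 2.32-fold below control at day 10 (-1.22 ± 0.26, adjusted p = 0.018). Oas3 levels were 0.16 and 0.39 in controls, 0.72 and 0.95 at day 4, 0.78 and 1.01 at day 7, and -0.92 at day 10. Its arrays of days 4 and 7 lay above the controls and day 10 below them, and Oas3 fell by -1.20 ± 0.28 at day 10 against control (adjusted p = 0.023).

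Oas1a and Oas1g belong to a cluster of close mouse paralogs, and whether their probes read each other's transcripts was not tested. Oas1a levels were 4.62 and 5.27 in controls, 5.77 and 5.74 at day 4, 5.33 and 5.47 at day 7, and 4.18 at day 10, with no call in any comparison. The Oas1g probe was well above background on both day 4 arrays only, at levels of -4.05 and -3.98, against measured levels of -6.21 and -5.24 in controls, -4.81 and -4.69 at day 7 and -5.84 at day 10. Since the controls give only a bound, Oas1g was at least 1.52-fold higher at day 4 than in controls (limma adjusted p = 0.34), a description only, since the day 4 arrays alone brought the probe past the filter. A second Oas1g probe was well above background on no array. Oasl1, which in mice restrains the translation of Irf7, went the other way at day 4: levels were 6.27 and 6.46 in controls, 5.81 and 6.11 at day 4, 6.19 and 6.41 at day 7, and 5.87 at day 10. None of its differences passed the test.

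The IFIT proteins bind viral RNA and block its translation. Of the 3 genes, Ifit2 rose at day 7, none was called at day 4, and at day 10 Ifit2 was above control while Ifit1 was below it. Ifit2 levels were -4.22 and -3.39 in controls, -2.31 and -2.78 at day 4, -0.28 and -1.34 at day 7, and -1.47 at day 10. All knockout arrays lay above both controls, with a spread of 1.06 between the day 7 arrays. The day 7 difference was 2.99 ± 0.45, or 7.96-fold (limma adjusted p = 0.017), and the day 10 difference was 2.33 ± 0.56, or 5.04-fold (adjusted p = 0.025). Ifit2 was the only one of the 33 genes called above control at day 10, where 10.6% of all features were called higher (2630) and 17.5% lower (4329). This call was lost without control replicate 1 (difference 1.92), without either day 4 array and with only the groups compared in the fit. It was also lost with normexp background correction, which gave a difference of 0.94. The day 7 difference of Ifit2 ran from 1.42 to 3.52 over 18 alternatives in processing and arrays. Its controls lay near the lowest level well above background on their arrays (-4.74 and -4.50).

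Ifit1 levels were 1.25 and 1.50 in controls, 2.23 and 2.62 at day 4, 1.87 and 2.35 at day 7, and -0.42 at day 10. The gene was highest at day 4 (1.05 ± 0.27, limma adjusted p = 0.48), and at day 10 it fell 3.46-fold below control (-1.79 ± 0.34, adjusted p = 0.011). Ifit1 and Ifit2 thus lay on the same side of the controls at days 4 and 7 and on opposite sides at day 10. Ifit3 levels were 0.80 and 1.23 in controls, 1.56 and 1.68 at day 4, 1.22 and 1.87 at day 7, and -0.22 at day 10. Day 7 overlapped the controls in this gene, and the day 10 difference of -1.24 ± 0.37 missed the threshold (adjusted p = 0.051). The mouse genome has a near-identical copy of Ifit3, Ifit3b, so the source of this signal is uncertain.

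**Figure D3:**
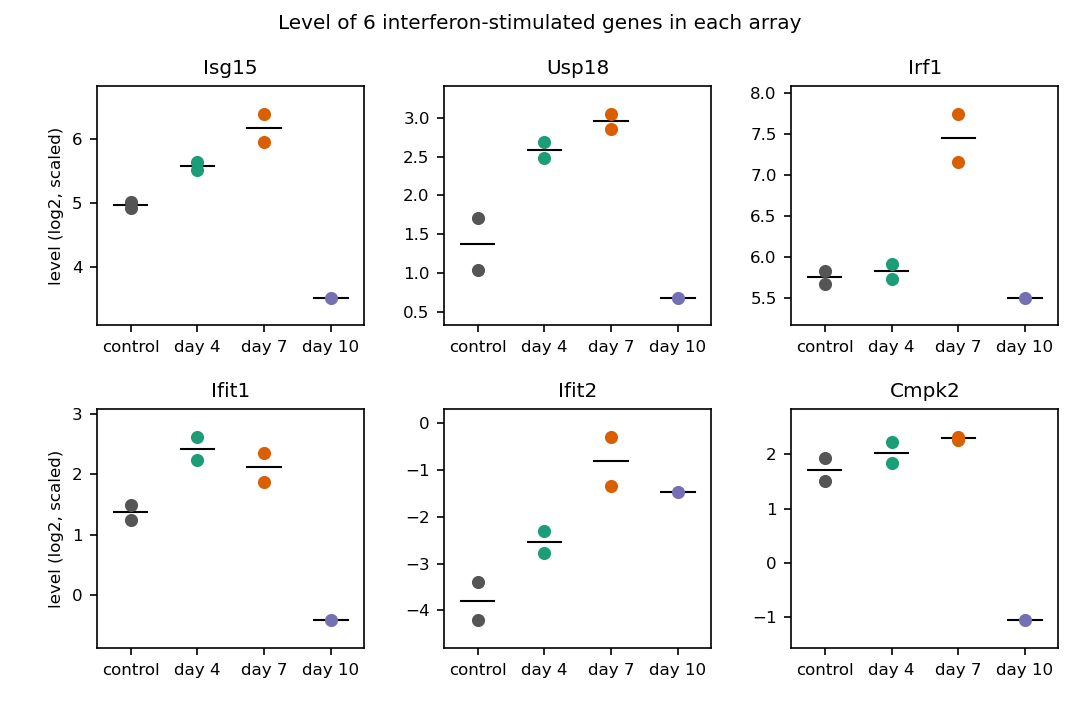
Level (log2 of scaled signal, vertical axis, with its own range in each panel) of Isg15, Usp18, Irf1, Ifit1, Ifit2 and Cmpk2 on each array, with points for arrays and lines for group means, for 6 genes chosen after their values were seen. Isg15 and Usp18 step up from control to day 4 and day 7, Irf1 is highest at day 7, Ifit2 remains above control at day 10 (-1.47), and Cmpk2 is lowest at day 10 (-1.06).

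All 3 genes of the ISG15 system rose at day 7, and all 3 lay between controls and day 7 at day 4 without a call. Isg15 is a ubiquitin-like modifier, Usp18 removes it from proteins and dampens signalling of the type I receptor, and Herc6 is the main ligase for it in mice. Isg15 levels were 4.93 and 5.01 in controls, 5.52 and 5.64 at day 4, 6.39 and 5.96 at day 7, and 3.52 at day 10. No array of one group overlapped another group. Isg15 rose 2.31-fold at day 7 (1.21 ± 0.24, limma adjusted p = 0.036) and fell 2.73-fold below control at day 10 (-1.45 ± 0.29, adjusted p = 0.014). A second Isg15 probe gave 1.21 at day 7 and -1.28 at day 10.

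Usp18 levels were 1.03 and 1.70 in controls, 2.48 and 2.68 at day 4, 3.05 and 2.86 at day 7, and 0.68 at day 10. Both knockout times up to day 7 lay above the controls, with a rise of 3.00-fold at day 7 (1.58 ± 0.29, limma adjusted p = 0.028). The day 10 difference from control was -0.69 ± 0.35 (adjusted p = 0.20). Herc6 levels were -4.20 and -2.24 in controls, -1.34 and -1.33 at day 4, 0.26 and -0.23 at day 7, and -3.31 at day 10, where the array lay between the controls. Herc6 rose by 3.23 ± 0.61 at day 7 (adjusted p = 0.032), with a probe that was well above background on 1 of the 2 controls, which were 1.96 apart. The second Herc6 probe, which was well above background on all 7 arrays, gave 1.78 at day 7 and -0.998 at day 10 against control, where the first gave -0.10.

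Among the 4 transcription factors, Irf1 alone rose at day 7, and Irf7, Irf9 and Stat2 fell below control at day 10. Irf1 is induced by interferon gamma and by type I interferon. Its levels were 5.67 and 5.83 in controls, 5.74 and 5.91 at day 4, 7.74 and 7.16 at day 7, and 5.50 at day 10. Day 4 overlapped the controls and both day 7 arrays stood above all others. Irf1 rose 3.26-fold at day 7 over control (1.70 ± 0.27, limma adjusted p = 0.018). The difference between day 7 and day 4 was 1.63 ± 0.27 (adjusted p = 0.041), and Irf1 was the only one of the 33 genes called in that comparison, where 1.24% of all features were higher (308) and 1.47% lower (365). Without any 1 array among the controls or day 4, or without day 7 replicate 1, this single call was lost.

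Stat2 and Irf9 are subunits of the complex that binds the ISRE, and Irf7 amplifies the production of type I interferon. Stat2 levels were 3.14 and 3.18 in controls, 3.50 and 3.77 at day 4, 3.96 and 4.25 at day 7, and 2.15 at day 10. Its groups did not overlap and were highest at day 7, but the day 7 difference of 0.94 ± 0.23 missed the threshold (limma adjusted p = 0.065), and Stat2 fell by -1.01 ± 0.28 at day 10 (adjusted p = 0.042). Irf9 levels were 3.25 and 3.50 in controls, 3.27 and 3.70 at day 4, 3.03 and 3.21 at day 7, and 2.07 at day 10. It was the only gene of the 33 for which both day 7 arrays lay below both controls, with a difference of -0.25 ± 0.25, and it fell by -1.31 ± 0.30 at day 10 (adjusted p = 0.024). Irf7 levels were 1.84 and 2.29 in controls, 2.32 and 2.53 at day 4, 1.96 and 1.98 at day 7, and 0.54 at day 10. Its day 7 arrays lay between the controls, and Irf7 fell by -1.53 ± 0.30 at day 10 (adjusted p = 0.013).

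Of the 5 sensors of nucleic acid, Zbp1 rose at day 7, and Ddx58 and Dhx58 fell below control at day 10. Zbp1 binds nucleic acid of the Z form and can start necroptosis. Zbp1 levels were 1.96 and 2.41 in controls, 3.37 and 2.23 at day 4, 4.62 and 3.95 at day 7, and 1.64 at day 10. The day 4 arrays were 1.14 apart and overlapped the controls, while both day 7 arrays lay above all others (2.10 ± 0.45, limma adjusted p = 0.046). Its 2 probes differed in size at day 7 and in direction at day 10. The brighter gave 2.10 and -0.55 against control at these times, and the dimmer, well above background on 6 arrays, gave 5.94 and 3.20.

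Ddx58, the sensor RIG-I, had levels of 3.09 and 3.42 in controls, 3.54 and 3.57 at day 4, 3.98 and 3.99 at day 7, and 2.24 at day 10. Both day 4 and day 7 lay above the controls without a call (0.73 ± 0.22 at day 7, limma adjusted p = 0.11), and Ddx58 fell by -1.01 ± 0.27 at day 10 (adjusted p = 0.036). Dhx58, the related protein LGP2, had levels of -0.74 and -0.50 in controls, -0.07 and 0.02 at day 4, -1.36 and -0.64 at day 7, and -2.07 at day 10. It was above the controls at day 4 only, overlapped them at day 7, and fell by -1.46 ± 0.36 at day 10 (adjusted p = 0.029). Ifih1, the sensor MDA5, had levels of 3.07 and 3.33 in controls, 3.28 and 3.60 at day 4, 4.21 and 3.78 at day 7, and 2.34 at day 10. Its day 7 difference was 0.80 ± 0.26 (adjusted p = 0.14) and its day 10 difference -0.86 ± 0.32 (adjusted p = 0.096). Eif2ak2, the kinase PKR, had levels of 1.42 and 1.29 in controls, 1.58 and 1.62 at day 4, 2.24 and 1.77 at day 7, and 1.28 at day 10, and was called in no comparison.

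Parp9 and Dtx3l form a complex of an ADP-ribosyltransferase and a ubiquitin ligase, and both rose at day 7. Parp9 levels were 2.81 and 2.92 in controls, 3.10 and 3.09 at day 4, 4.17 and 3.87 at day 7, and 2.76 at day 10. Dtx3l levels were 2.42 and 2.36 in controls, 2.82 and 2.79 at day 4, 3.89 and 3.53 at day 7, and 1.93 at day 10. In both genes the day 4 arrays lay narrowly above the controls and the day 7 arrays well above day 4. Parp9 rose 2.24-fold at day 7 (1.16 ± 0.22, limma adjusted p = 0.032) and Dtx3l 2.49-fold (1.32 ± 0.22, adjusted p = 0.023). Against day 4, the day 7 differences were 0.93 ± 0.22 for Parp9 (adjusted p = 0.095) and 0.90 ± 0.22 for Dtx3l (adjusted p = 0.11), so neither step between the times was called. Parp14, another ADP-ribosyltransferase, had levels of 1.82 and 3.72 in controls, 3.87 and 4.17 at day 4, 4.82 and 5.21 at day 7, and 3.11 at day 10. Its controls were 1.90 apart, and the day 7 difference of 2.24 ± 0.59 missed the threshold (adjusted p = 0.083).

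The effectors of virus restriction held no call at days 4 and 7. Cmpk2, a mitochondrial nucleotide kinase, had levels of 1.93 and 1.51 in controls, 1.83 and 2.23 at day 4, 2.26 and 2.32 at day 7, and -1.06 at day 10. The day 10 array stood far below all others, and Cmpk2 fell 6.84-fold below control (-2.77 ± 0.32, limma adjusted p = 0.0019). Rsad2, or viperin, which makes a chain-terminating nucleotide and lies next to Cmpk2 on chromosome 12, had levels of 1.25 and 0.73 in controls, 1.35 and 2.43 at day 4, 2.15 and 1.73 at day 7, and 0.49 at day 10. It shared the direction of Cmpk2 at day 10 with a difference of -0.50 ± 0.51 that was not called (adjusted p = 0.50). Bst2, or tetherin, which holds budding virions at the cell surface, had levels of 1.57 and 1.18 in controls, 2.67 and 2.31 at day 4, 3.31 and 2.22 at day 7, and 2.36 at day 10. All 5 knockout arrays of Bst2 lay above both controls, with no call at any time (0.99 ± 0.49 at day 10, adjusted p = 0.18). Samd9l, a restriction factor of poxviruses, had levels of 3.17 and 3.67 in controls, 3.98 and 4.11 at day 4, 4.63 and 4.48 at day 7, and 3.57 at day 10, and its day 7 difference of 1.14 ± 0.25 lay just outside the threshold (adjusted p = 0.0505).

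Of the 5 other induced genes, Rtp4 rose at day 7, and Ifi35, Ifi27l2a and Rtp4 fell below control at day 10. Rtp4 encodes a chaperone of receptor transport. Its levels were 3.12 and 3.47 in controls, 4.03 and 4.07 at day 4, 4.33 and 4.35 at day 7, and 2.23 at day 10. The groups did not overlap, with a 2.06-fold rise at day 7 (1.04 ± 0.22, limma adjusted p = 0.046) and a fall of -1.06 ± 0.27 at day 10 (adjusted p = 0.033). Ifi27l2a, a mouse relative of human IFI27, had levels of -0.33 and -0.29 in controls, 0.94 and 0.94 at day 4, 0.21 and 0.37 at day 7, and -1.68 at day 10. It was highest at day 4 and had the smallest p of the 33 genes there, with a 2.39-fold higher signal (1.25 ± 0.20, adjusted p = 0.21), and fell by -1.36 ± 0.25 at day 10 (adjusted p = 0.010).

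Ifi44 levels were -3.47 and -3.42 in controls, -1.75 and -2.39 at day 4, -2.16 and -2.36 at day 7, and -2.55 at day 10. All 5 knockout arrays lay above the controls, and no difference passed the threshold. It was 1.38 ± 0.28 at day 4 (limma adjusted p = 0.33), 1.19 ± 0.28 on day 7 (adjusted p = 0.058) and 0.90 ± 0.34 on day 10 (adjusted p = 0.098). Ifi35, a leucine zipper protein, had levels of 3.78 and 4.04 in controls, 3.87 and 3.83 at day 4, 4.47 and 4.03 at day 7, and 2.36 at day 10. It overlapped the controls at days 4 and 7 and fell by -1.55 ± 0.30 at day 10 (adjusted p = 0.013). Xaf1, which antagonises the apoptosis inhibitor XIAP, had levels of 1.21 and 1.39 in controls, 2.15 and 2.01 at day 4, 2.07 and 2.63 at day 7, and 0.36 at day 10. The day 4 and day 7 arrays lay above the controls, with no call against control at any time (1.05 ± 0.26 at day 7, adjusted p = 0.071).

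The higher levels of day 7 did not persist on the day 10 array for most of the genes. Between day 7 and day 10, 21 of the 33 genes fell and 0 rose, while 10.7% of all features were called lower (2645) and 7.25% higher (1795). The median difference was -1.77, beside -0.08 over all features, and all 33 differences were below 0. The day 10 array lay below both day 7 arrays for 32 genes, where 43.9% of all features did so. These 32 include Oas1g, whose probe was well above background at neither time. The day 10 array lay below every other array for 24 of the 33, where 34.2% of all features did so. The largest falls were those of Cmpk2 (-3.35 ± 0.32, limma adjusted p = 0.0018), Herc6 (-3.33 ± 0.75, adjusted p = 0.030) and Isg15 (-2.65 ± 0.29, adjusted p = 0.0028). Both times lie in the same row of the slide.

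For the 10 genes that rose at day 7, the differences between day 10 and day 7 ran from -3.33 (Herc6) to -0.66 (Ifit2, limma adjusted p = 0.47). This comparison shares the day 7 arrays with the one that called them. Against control at day 10, 1 of the 10 was called higher (Ifit2) and 2 lower (Isg15 and Rtp4). Over the 33 genes, 1 was called higher and 13 lower than control at day 10, beside 10.6% and 17.5% of all features, and the median was -0.76 beside -0.13. The array lay above both controls for 4 genes (Oas2, Ifit2, Bst2 and Ifi44), between them for 4 and below them for 25, whereas 37.4% of all features lay above and 49.9% below. Without control replicate 1 or control replicate 2, 5 genes were called at day 10, and 9 without either day 4 array. In bulk samples such as these, fewer cells of a type and less RNA per cell cannot be told apart.

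Other genes of the pathway were read from the same fit. Of 19 listed interferon genes, 15 had a probe and 8 were tested, and none was called in any comparison. The probes for Ifnb1, Ifna4, Ifna11, Ifna13 and Ifne were well above background on no array. The interferon alpha genes are close paralogs whose probes can read each other's transcripts. Ifnl3, the type III interferon with a measured probe, had levels of -1.31 and -1.58 in controls, -1.54 and -1.63 at day 4, -1.25 and -1.37 at day 7, and -2.18 at day 10. Day 4 and day 7 overlapped its controls. Ifng had levels of -3.35 and -4.14 in controls, -4.22 and -4.06 at day 4, -1.94 and -3.40 at day 7, and -3.41 at day 10. One day 7 array stood above the rest, and the day 7 difference from control was 1.08 ± 0.52 (limma adjusted p = 0.28). The differences at day 7 were 1.45 ± 0.68 for Ifnk (adjusted p = 0.27), and Ifna2 was well above background on 2 arrays only.

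Among 15 receptor and JAK-STAT genes, 1 rose at day 7, and 2 were higher and 2 lower than control at day 10. Beside them, 2.99% of all features were called higher and 4.39% lower at day 7, and 10.6% and 17.5% at day 10. The gene that rose was Socs1, an inhibitor of JAK kinases. Its levels were -1.05 and -1.19 in controls, -0.41 and -0.68 at day 4, 4.53 and 2.72 at day 7, and 1.82 at day 10, which made 26.8-fold at day 7 (4.74 ± 0.56, limma adjusted p = 0.0083) and 7.68-fold at day 10 (adjusted p = 0.023). Socs3, which acts mainly on receptors of the interleukin-6 type, was 12.6-fold higher at day 10 (3.65 ± 0.40, adjusted p = 0.0017). Stat3 was not called at day 7 (0.99 ± 0.22, adjusted p = 0.0503), and Ifngr2, a chain of the interferon gamma receptor, fell by -1.38 ± 0.32 at day 10 (adjusted p = 0.022). Of 14 tested genes listed for the induction of interferon, a list not split into activators and repressors, none was called at day 7. The same shares of all features stand beside this list. At day 10, Irf5 was higher (1.85 ± 0.29, adjusted p = 0.0058), and Irf8 (-2.49 ± 0.38, adjusted p = 0.0052), Irf2 and Irf3 were lower.

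A list of 43 other interferon-stimulated genes had no call at day 4, beside 0.0323% of all features higher and 0% lower. Its day 4 median was 0.08, with 25 differences above 0 and 18 below, where the 33 genes had a median of 0.61. The list had 5 higher and 1 lower at day 7 (median 0.56). At day 10 it had 5 higher and 11 lower (median -0.28). The shares of all features were 2.99% higher and 4.39% lower at day 7, and 10.6% and 17.5% at day 10. Cd274, the checkpoint ligand PD-L1, rose 11.1-fold at day 7 (3.47 ± 0.31, limma adjusted p = 0.0043) and was not called at day 10. Gvin1, a very large interferon-inducible GTPase, fell at day 7 (-1.71 ± 0.27, adjusted p = 0.018) and at day 10 (-5.36 ± 0.33). Tnfsf10, the death ligand TRAIL, was not well above background at day 10, where its measured signal was 84.1-fold lower than control (adjusted p = 0.00023). The log2 difference ran from -6.58 to -4.66 over the alternatives in processing and arrays. Ifitm1 was 36.3-fold higher at day 10 (5.18 ± 0.35, adjusted p = 0.00041).

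The list of 30 tested interferon gamma genes and GTPases had the highest median of these lists at day 7, 1.82. It had 12 higher and 0 lower at day 7, beside 2.99% and 4.39% of all features, and no call at day 4 (median 0.20). The 30 include Tgtp1 and Ciita, whose probes were well above background on no control or day 4 array. They passed the filter only through the arrays of days 7 and 10, and the medians and counts of this list include them as tested genes. Gbp7, a guanylate-binding protein of cell-intrinsic defence, had levels of -3.20 and -2.75 in controls, -1.20 and -1.60 at day 4, 2.73 and 1.52 at day 7, and -2.38 at day 10, with a 34.3-fold rise at day 7 (5.10 ± 0.43, limma adjusted p = 0.0037). Its probe was well above background on 1 of the 2 controls. Irgm2, an immunity-related GTPase, had levels of 1.09 and 1.21 in controls, 2.56 and 1.86 at day 4, 4.93 and 4.41 at day 7, and -0.17 at day 10, with an 11.5-fold rise (3.52 ± 0.32, adjusted p = 0.0044). Both genes followed the order of the 33 genes up to day 7, with no overlap of control, day 4 and day 7. From day 4 to day 7, 7 of the 30 genes rose (median 1.46), while 1 of the 33 did (median 0.34), beside 1.24% of all features. From day 7 to day 10, 17 of the 30 fell (median -2.24), beside 10.7% of all features. Against control at day 10, 1 of the 30 was called higher and 7 lower, beside 10.6% and 17.5% of all features. In this comparison 16 differences were above 0 and the median was 0.48. B2m, the light chain of MHC class I, fell 5.16-fold below control at day 10 (-2.37 ± 0.25, adjusted p = 0.0015), and Ido1 was at least 12.6-fold lower there (adjusted p = 0.00078).

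**Figure D4:**
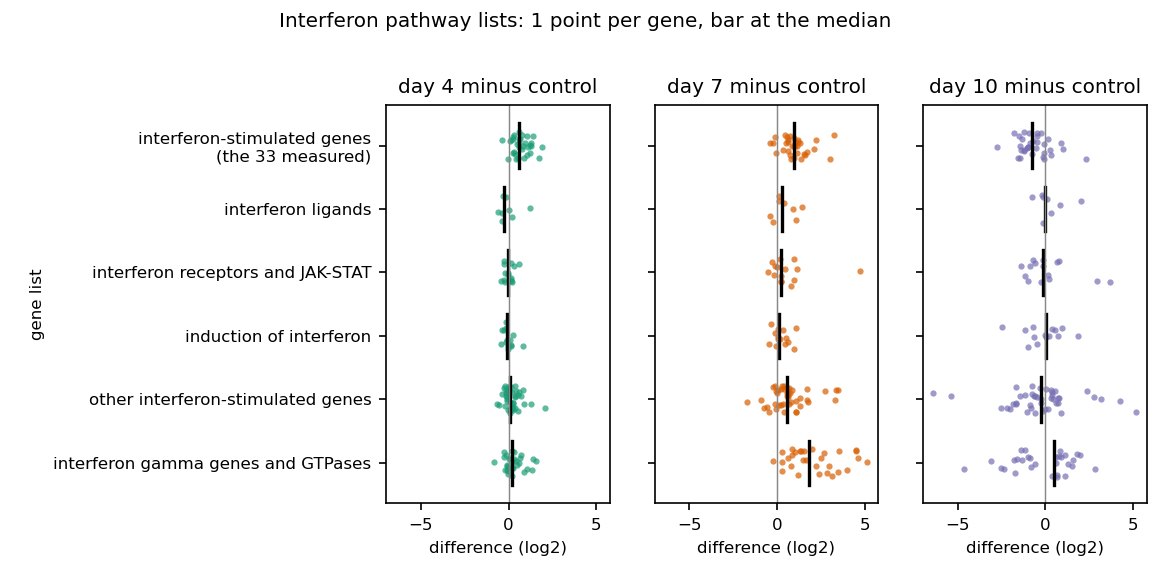
Log2 difference from control (horizontal axis) of each tested gene of the interferon lists at days 4, 7 and 10, with 1 point per gene and a bar at the median of each list. The 33 interferon-stimulated genes have medians of 0.61, 0.95 and -0.76, the interferon gamma genes and GTPases 0.20, 1.82 and 0.48, and the ligands and receptors stay near 0 in their medians.

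Markers of other cell types also differed between the arrays, and their part in the values above was not tested. Each marker sum adds the scaled signal of a list's tested genes. Beside the marker calls, 2.99% of all features were higher and 4.39% lower at day 7, and 10.6% and 17.5% at day 10. The 12 tested markers of T and intraepithelial lymphocytes summed to 205 to 230 in controls, 208 to 214 at day 4, 295 to 338 at day 7 and 15.3 at day 10. In this list 1 gene, Gzmb, rose at day 7 (1.46 ± 0.25, limma adjusted p = 0.023) and 11 of 12 fell below control at day 10. At day 4 these markers had a median of -0.13 with 0 called. At day 7 their median was -0.0027 with 6 of 12 below 0, and Gzma, with mean levels of 7.28 in controls and 7.85 at day 7, was not called (0.57 ± 0.23, adjusted p = 0.21). The 12 tested markers of macrophages and neutrophils summed to 38.8 to 40.5 in controls, 26.5 to 34.2 at day 4, 46.7 to 54.7 at day 7 and 233 at day 10, with 1 gene (S100a9, at least 5.70-fold) higher at day 7 and 7 at day 10. A sum is led by its brightest genes. The measured differences of these 12 markers from control at day 10 ran from -0.84 (Lyz2) to 13.5 (S100a9), with a median of 1.94. Of these differences, 10 were above 0 and 2 below (Lyz2 and Ptprc). The 10 enterocyte markers summed to 2884 to 2945 in controls, 2386 to 2909 at day 4, 2060 to 2562 at day 7 and 382 at day 10. All 10 were called lower at day 10. The sum of the 12 epithelial markers was 1715 to 1736 in controls, 1620 to 1630 at day 4, 1872 to 1923 at day 7 and 1938 at day 10. Their single differences from control at day 10 ran from -2.84 (Cdx1) to 1.73 (Krt18), with 7 above 0 and 5 below. At day 7, 1 of the 12 was called lower.

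The 8 markers listed for plasmacytoid dendritic cells, a main source of type I interferon, include Klk1, Spib and Ly6d, which epithelium can express. They summed to 105 to 106 in controls, 80.1 to 86.6 at day 4, 61.9 to 92.1 at day 7 and 130 at day 10. At day 10 against control, 5 of the 8 were called lower and 1 higher, with a median of -2.37. The higher one was Ly6d, at mean levels of -2.05 in controls and 6.09 at day 10. The 6 tested markers of B and plasma cells had no call and summed to 71.2 to 89.5 in controls, 60.9 to 63.7 at day 4, 56.9 to 71.7 at day 7 and 56.3 at day 10. Of 8 fibroblast markers, Col1a1, Lum, Pdgfra and Pdgfrb were well above background on no array, as were Cdh5, Tek and Emcn of 7 endothelial markers and Myh11, Cnn1, Des and Actg2 of 6 markers of smooth muscle. The tested genes of the fibroblast, endothelial and smooth muscle lists summed to 0.917 to 1.44, 6.51 to 8.98 and 1.04 to 2.90 over the 7 arrays.

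**Figure D5:**
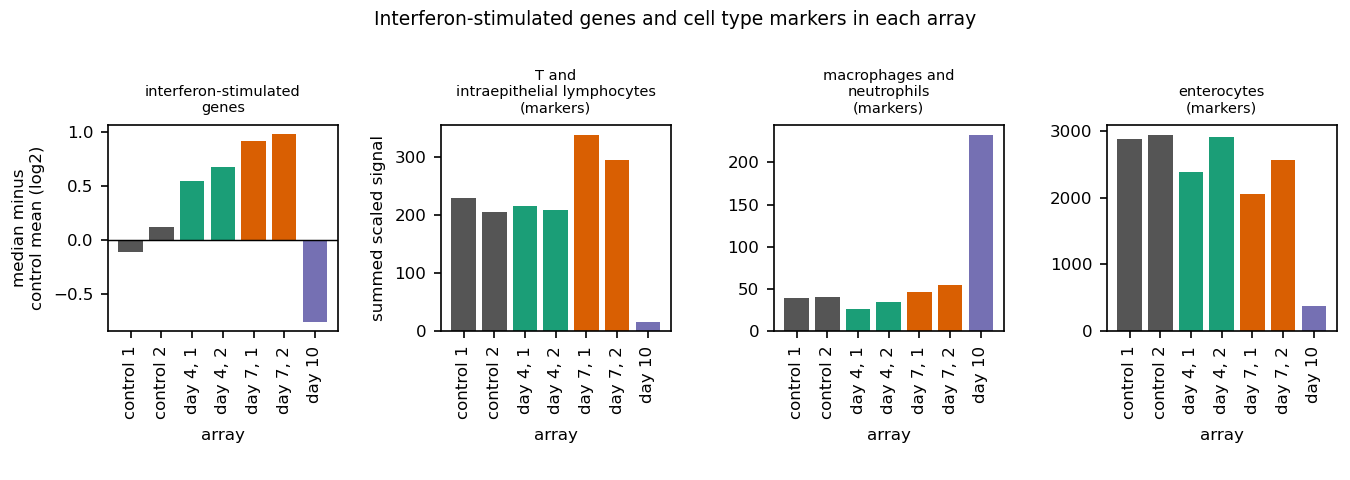
The left panel shows the median of the 33 interferon-stimulated genes on each array, relative to the mean of the controls (log2), and the other panels the summed scaled signal of the markers of T and intraepithelial lymphocytes, of macrophages and neutrophils, and of enterocytes, with 1 bar per array. The interferon-stimulated genes are at 0.55 and 0.67 at day 4 and at 0.91 and 0.98 at day 7. The lymphocyte sum is 208 to 214 at day 4 and 295 to 338 at day 7. At day 10 the lymphocyte (15.3) and enterocyte (382) sums are lowest and the myeloid sum (233) is highest. A sum is led by its brightest genes, and 2 of the 12 myeloid markers lay below control at day 10. How the sums relate to the interferon-stimulated genes was not tested.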

How the data were processed

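Total RNA of intestinal epithelial cells was hybridised, with 1 colour (Cy3), to 7 arrays that lay on 1 slide read in 1 scan session. Control and day 4 arrays lie in row 1 of the slide and day 7 and day 10 arrays in row 2. The intensity values deposited by the authors are scanner output of Agilent Feature Extraction, per the file headers, in which the processed signal is background-subtracted and not scaled between arrays. Their build label is mm9. The deposited value table equalled this intensity within 0.1% for 100% of single-spot probes, with column medians from 15.2 to 30.5, so it is linear and not centred, and it served as an alternative.

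Control spots and outlier spots (115 to 274 per array) were left out, spots of a probe were averaged, and each array's 75th percentile was subtracted on the log2 scale. No spot was saturated, and 45.2% to 51.3% of probes per array were well above background. Probes well above background on fewer than 2 of the 7 arrays were left out, as were 34 probes with an outlier spot. The files used here name no genes, so accessions were matched to symbols of RefSeq GRCm38.p6: 27509 probes had 1 symbol, 0 several and 28172 none. A gene was read from its brightest probe. Of the 33 genes, 12 had several probes. The 24760 features (13802 named) were fitted with limma 3.58.1 in R 4.3.3, with 1 mean per group over all 7 arrays and Benjamini-Hochberg adjustment, leaving 3 residual degrees of freedom and 3.14 prior ones. A probe that was well above background on no array of a group gives only a bound there, computed from the lowest signal well above background. Where the measured signal was higher than that lowest signal, as for Tnfsf10 at day 10, the measured fold is given. The number of arrays limits the precision.

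The members and lists were chosen with earlier results of these data known. Full values are given for the genes called in any comparison and those with the 3 smallest p-values in each comparison, and up to 4 genes per pathway list by smallest p against control. Further genes were named to account for every listed gene, and a gene outside these rules (Gzma, Gzmb, S100a9, Ly6d, Lyz2, Ptprc, Tgtp1, Ciita) was chosen after its values were seen. Alternatives were the scaling, background correction, filter, probe summary, value table, replicate block, arrays in the fit and leaving out each array. Background correction with normexp used the median signal, since the mean signal that was planned for it was not used here. Replicate numbers did not pair the samples: the deviations of same-numbered arrays correlated at 0.0083, 0.086 and 0.25.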

Additional observations from a re-analysis of the deposited data

Results flagged for a closer look

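By limma's test of the difference itself, the levels of 5 named genes differed between day 7 and day 4. On the log2 scale these were Irf1 (1.63), Socs1 (4.17), Cd274 (3.32), Gbp7 (3.52) and Irgm2 (2.46), all higher at day 7. The control arrays do not enter these differences, but they enter the estimate of the spread that all groups share. The times lie in different rows of the slide.

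Between day 10 and day 7, the log2 differences of 21 interferon-stimulated genes passed the same test, all lower on the 1 day 10 array. In the OAS and IFIT groups these were Oas2 (-1.28), Oas3 (-1.81), Oasl2 (-2.05), Ifit1 (-2.53) and Ifit3 (-1.77). In the ISG15 system they were Isg15 (-2.65), Usp18 (-2.27) and Herc6 (-3.33). The transcription factors were Irf1 (-1.95), Irf7 (-1.43) and Stat2 (-1.95), and the sensors were Ddx58 (-1.75), Ifih1 (-1.66) and Zbp1 (-2.64). The others were Parp9 (-1.26), Dtx3l (-1.78), Cmpk2 (-3.35), Ifi35 (-1.89), Ifi27l2a (-1.97), Rtp4 (-2.10) and Xaf1 (-1.99).

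Among the other genes of the pathway, those lower at day 10 than at day 7 were Ifngr2 (-1.28), Irf8 (-3.47), Gvin1 (-3.65), Cd274 (-2.79), Gbp7 (-4.50), Irgm2 (-4.84) and B2m (-2.63). Tnfsf10 (-6.95, a measured 124-fold) and Ido1 (-4.40, at least 10.8-fold) were not well above background at day 10. Those higher at day 10 were Socs3 (2.54), Irf5 (1.77) and Ifitm1 (4.09).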

How the results depend on the processing

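The count of 0 interferon-stimulated genes called at day 4 was the same under all 18 alternatives. Its median difference of 0.61 was 0.41 with normexp background correction, and 0.47 to 0.82 when 1 control, day 4 or day 7 array was left out, the meaning of leaving out 1 array in what follows. At day 7 the count of 10 became 6 with scaling to the array median, 3 without a filter on dim probes, 3 with only the groups compared in the fit, and 0 to 7 when 1 array was left out (10 without the day 10 array), and the median of 0.95 became 0.68 with normexp. None of the 10 calls held under all 18 alternatives, with Ifit2 lost under 2 of them and Rtp4 under 10. The call of Irf1 between day 7 and day 4 became 0 with median scaling, without the filter, with the replicate block and with only the groups compared, and 0 to 1 when 1 array was left out. At day 10 against control, the count of 14 became 7 with only the groups compared and 5 to 16 when 1 array was left out. Its median of -0.76 became -0.95 with median scaling, -0.55 with the percentile over probes well above background on all arrays, -0.64 with quantile normalization, -0.60 with normexp, -0.90 with probes restricted to those well above background everywhere, and -1.03 to -0.73 when 1 array was left out. Ifit1, Cmpk2 and Ifi27l2a held their calls under all 17 alternatives. From day 7 to day 10 the count of 21 stayed within 14 to 24, with 11 genes called under all 17 alternatives. Its median of -1.77 became -1.95 with median scaling, -1.59 with the percentile over those probes, -1.60 with normexp and -1.64 with the replicate block. Ifna2 at day 10 against control, a dim probe without a call, turned from 2.04 to -0.050 with normexp. The cause of these changes was not tested.

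With the replicate number as a block, the counts were 0 at day 4, 10 at day 7, 0 between day 7 and day 4, 11 at day 10 and 20 from day 7 to day 10. The labels give no sign that the numbers mark a shared litter or day. Where an array was left out, the remaining array of its group was taken to vary like the other groups. With 3 residual degrees of freedom and 1 array at day 10, no spread between mice can be given for that time.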
